A study of Sus scrofa domesticus with 150 samples.

Results

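The center of excisional skin wounds on day 4 was compared with unwounded skin. The members are the 6 center samples of day 4, out of 150 samples in the series, and they were compared with the 6 whole excised skin samples of day 0. They were found by the day and the location in the sample labels. All animals were female Yorkshire-mix pigs, wounded by full-thickness circular excision on the back under the same 2 dressings (Telfa Clear and Tegaderm). The wounds had no other treatment before they were sampled. Biopsy sites then received a topical antibiotic (Animax Ointment), and animals 4 to 6 had biopsies of other wounds on day 2. The center samples are biopsies of wounds F and G of animals 4, 5 and 6, and the skin samples are the tissue cut out of animals 1 to 6 when the wounds were made. A small biopsy was thus compared with a whole disc of skin, so the wound and the way of sampling cannot be told apart. Both wounds of an animal shared that animal, and each wound was sampled on a single day. Center samples of day 2 and day 6 came from other wounds of the same 3 animals.

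An open wound first fills with a clot and with white blood cells. Granulation tissue then replaces the clot: fibroblasts enter and lay down matrix, capillaries grow in, and macrophages and neutrophils clear debris while the epidermis creeps in from the edge. Unwounded skin is a layered epidermis over collagen-rich dermis, with hair follicles, glands, nerves and fat below.

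RNA was read as counts per gene. Total counts were 13710527 to 21782605 in the center samples and 15698806 to 21415735 in skin. Levels are given as counts per 1000000 counts (CPM) scaled by TMM, a factor per library that sets aside the most extreme genes, and each range is followed by the median of 6 samples. Differences are log2 fold changes, center over skin, ± standard error (SE), with adjusted p from edgeR's quasi-likelihood test and Benjamini-Hochberg adjustment over all genes tested. A gene was called at an adjusted p below 0.05, and the amount by which a gene is said to rise or fall is its log2 fold change. Levels of different genes are compared only as the deposited FPKM, counts per kilobase of gene, scaled for library size.

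Center samples correlated with each other at Pearson's r of 0.931 to 0.985 across genes, skin samples at 0.927 to 0.983, and center with skin at 0.69 to 0.747. Genes are not independent replicates, so these values only describe the libraries. Epidermal markers were high in skin and far lower in the center, as detailed later. A pair of libraries stood apart from their groups. The center of animal 4, wound F, held skeletal muscle transcripts at a summed 3897 CPM, against 10.7 CPM in wound G of the same animal. The skin of animal 2 held hair follicle transcripts at a summed 177 CPM, against 5343 to 20386 CPM in the other 5 skin samples. Leaving out both libraries gave 4793 genes higher and 4810 lower. The comparison was repeated with the animal as a block in animals 4 to 6 alone, with limma over all 12 samples at an estimated correlation within animals, and with the wounds of an animal summed and paired with its skin, and a blocked value is given beside a named gene where it changed the call.

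Of 14775 genes tested, 4847 (32.8%) were higher and 5004 (33.9%) lower in the day 4 center than in skin. At 2-fold or more, 2616 genes (17.7%) were higher and 2999 (20.3%) lower. All 6 center samples lay above all 6 skin samples for 3317 genes (22.5%), and below them for 3365 (22.8%). The median log2 fold change over all genes was -0.01. These shares are the background against which the gene lists are read, because 66.7% of the genes were called in one direction or the other. With library totals in place of TMM, the median over all genes moved to 0.12, and 5598 genes were higher and 4242 lower.

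**Figure D1:**
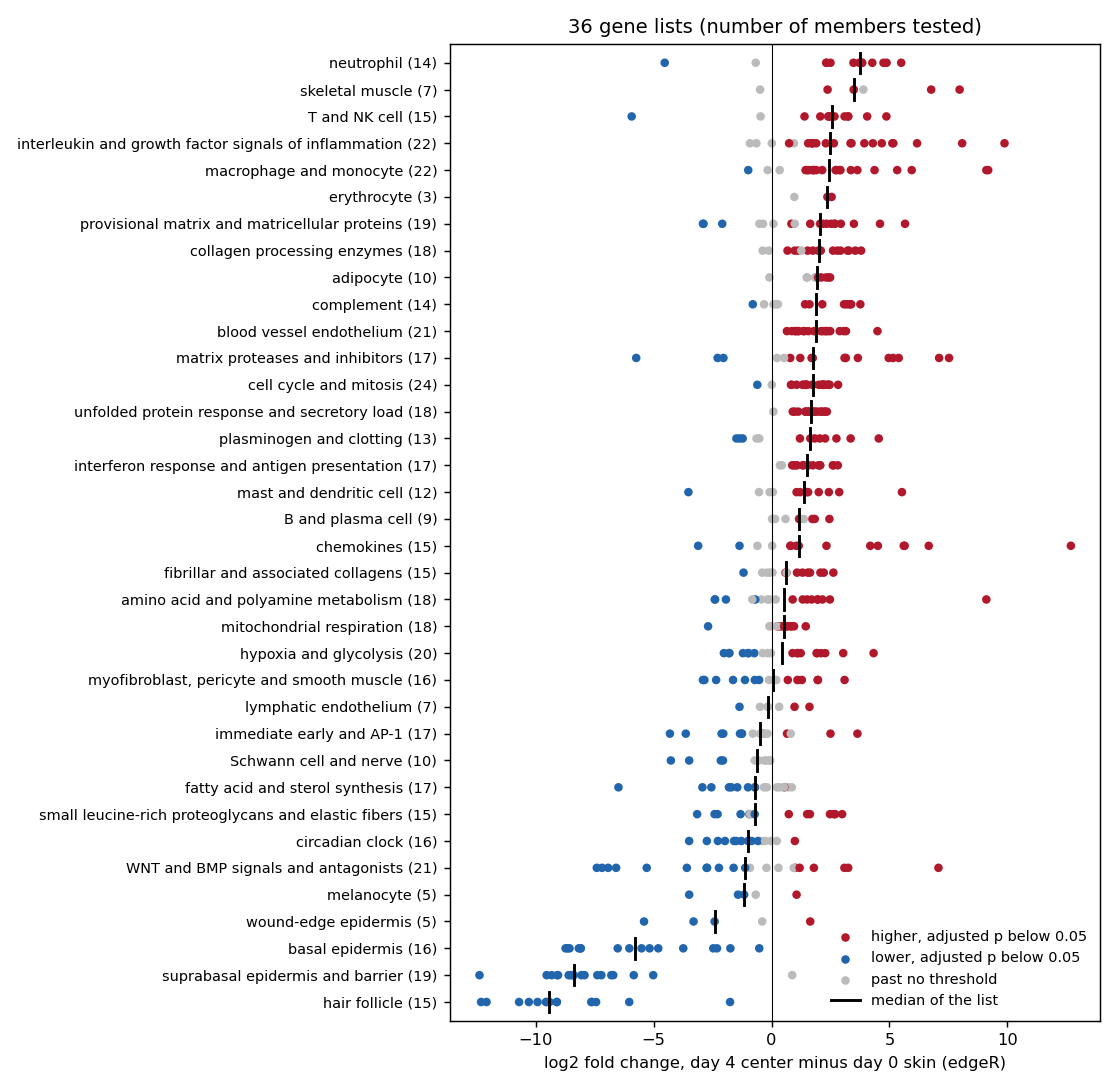
Log2 fold changes of the members of 36 gene lists, day 4 center over unwounded skin (horizontal axis, log2 scale). Each point is 1 gene and each black line the median of a list. The blood vessel list lies above 0 throughout, from 0.65 to 4.49, while the hair follicle list lies below 0 throughout, from -12.32 to -1.76.

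The 10 genes with the largest rise included CXCL8, IL1B and ARG1. CXCL8 (ENSSSCG00025017428), the chief chemokine for neutrophils, was at 231 to 2840.0 CPM (median 816) in the center and 0 to 0.576 CPM (median 0.108) in skin (log2 fold change 12.69 ± 0.88, adjusted p = 3.97e-08). IL1B (ENSSSCG00025004370), the inflammasome-processed cytokine interleukin 1 beta, was at 6.6 to 166 CPM (median 58.3) in the center and 0 to 0.128 CPM (median 0.0522) in skin (log2 fold change 9.88 ± 1.0, adjusted p = 1.43e-06). ARG1 (ENSSSCG00025000224), which splits arginine into ornithine and urea, was at 103 to 1223 CPM (median 456) in the center and 0 to 1.88 CPM (median 0.977) in skin (log2 fold change 9.11 ± 0.75, adjusted p = 2.08e-07). For each of these genes the lowest center sample stood far above the highest skin sample, although the center samples themselves spread widely.

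GPR84, a receptor for medium-chain fatty acids on myeloid cells, was at 17 to 617 CPM (median 76.7) in the center and 0 to 0.222 CPM (median 0.0902) in skin, with a log2 fold change of 10.55. ACOD1, which makes itaconate in activated macrophages, was at 0.969 to 61.5 CPM (median 23.8) in the center and 0 to 0.222 CPM (median 0) in skin and rose by 9.1 on the log2 scale. MARCO, a scavenger receptor of macrophages, was at 15.6 to 50.9 CPM (median 33) in the center and 0 to 0.209 CPM (median 0) in skin and rose by 9.18. In skin these genes had 4 to 10 counts over all 6 samples, so their fold changes depend on the prior count of the fit. The skin medians of CXCL8 and IL1B also lay below 3 counts in a library, so the same limit holds for them.

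The other genes among the 10 with the largest rise were SAA2, CCL3, IL11 and SDS. SAA2, an acute-phase serum amyloid A protein, was at 27.5 to 310.3 CPM (median 93.3) in the center and 0.0554 to 0.51 CPM (median 0.294) in skin (log2 fold change 8.74 ± 0.80, adjusted p = 5.47e-07), and reads of near-identical SAA copies could have been split between genes. CCL3, a chemokine for monocytes, was at 6.33 to 194 CPM (median 20.6) in the center and 0 to 0.448 CPM (median 0.0261) in skin (log2 fold change 8.54 ± 1.21, adjusted p = 3.33e-05). Its skin median lay below 3 counts in a library, so that fold change depends on the prior count too. SDS, serine dehydratase, was at 116 to 598 CPM (median 272) in the center and 0.601 to 2.11 CPM (median 0.729) in skin (log2 fold change 8.05 ± 0.52, adjusted p = 2.09e-08). The rule for these 10 genes asked for groups that do not overlap.

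**Figure D2:**
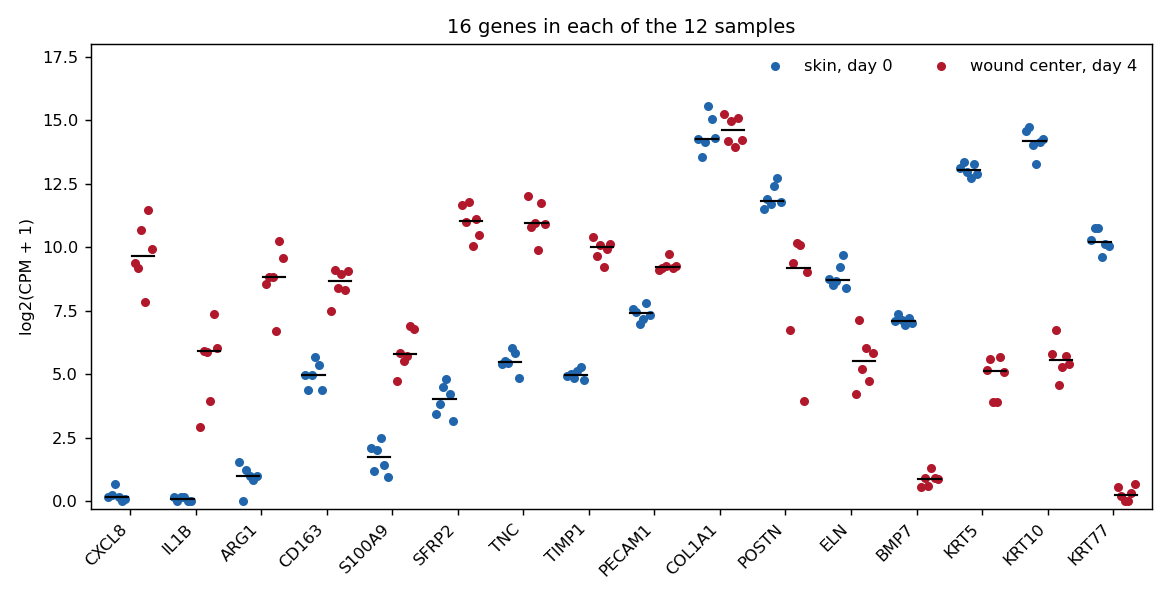
Levels of 16 named genes in each of the 12 samples, as log2(CPM + 1) (vertical axis), with skin in blue and the day 4 center in red, a point per sample and a bar at the median. CXCL8 lies above 231 CPM in every center sample and below 0.577 CPM in every skin sample, whereas COL1A1 overlaps between the groups.

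Neutrophil genes were higher as a group. Of 14 tested, 12 rose and 1 fell, with a median log2 fold change of 3.74. The members summed to 446 to 988 CPM (median 838) in the center and 85.1 to 124 CPM (median 108) in skin. S100A9, a calprotectin subunit, was at 25.3 to 116 CPM (median 53.7) in the center and 0.902 to 4.59 CPM (median 2.36) in skin (log2 fold change 4.75 ± 0.47, adjusted p = 1.21e-06). S100A8, its partner, rose by 3.83 on the log2 scale, and CXCR2, a receptor for CXCL8, rose by 2.34. LTF, the iron-binding protein lactoferrin, which glands also make, fell, with 8.42 to 33.3 CPM (median 24.1) in skin and 0.172 to 2.44 CPM (median 0.93) in the center (log2 fold change -4.53 ± 0.55, adjusted p = 8.58e-06).

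Macrophage and monocyte genes rose in 19 of 22 and fell in 1, with a median log2 fold change of 2.43. CD14, the lipopolysaccharide co-receptor, was at 133 to 395 CPM (median 255) in the center and 19.2 to 33.8 CPM (median 26.4) in skin (log2 fold change 3.36 ± 0.26, adjusted p = 1.01e-07). CD163, the haptoglobin-hemoglobin scavenger receptor, was at 177 to 552 CPM (median 414) in the center and 19.6 to 50.3 CPM (median 30.4) in skin (log2 fold change 3.64 ± 0.32, adjusted p = 4.03e-07). CD68, a lysosomal protein of phagocytes, rose by 2.76 and CSF1R, the receptor that macrophages need to survive, by 1.79. MRC1, the mannose receptor, rose by 1.44, and its groups overlapped slightly. CTSL, a lysosomal protease also made by keratinocytes, fell, with 283 to 509 CPM (median 392) in skin and 179 to 231 CPM (median 193) in the center (log2 fold change -0.99 ± 0.13, adjusted p = 2.13e-05).

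Among signals of inflammation and repair, 18 of 22 genes were higher and none were lower, with a median of 2.47. IL6, an acute-phase cytokine, was at 7.14 to 36.4 CPM (median 21.1) in the center and 0 to 0.893 CPM (median 0.189) in skin (log2 fold change 6.17 ± 0.59, adjusted p = 8.9e-07). IL11, a cytokine of the same receptor family, was at 17.2 to 162 CPM (median 102) in the center and 0.0641 to 0.574 CPM (median 0.32) in skin (log2 fold change 8.08 ± 0.61, adjusted p = 8.96e-08). OSM, a further member of that family made by white blood cells, rose by 5.12. IL1RN, which blocks the IL-1 receptor, was at 84.9 to 349 CPM (median 185) in the center and 12.9 to 22.8 CPM (median 16.1) in skin (log2 fold change 3.39 ± 0.34, adjusted p = 1.19e-06), so both the cytokine and its antagonist were higher.

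TGFB1 and INHBA, ligands of the TGF-beta family, were higher too, while TGFB2 was not called and BMP7 fell. TGFB1 was at 138 to 179 CPM (median 156) in the center and 27.8 to 37.7 CPM (median 31) in skin (log2 fold change 2.3 ± 0.10, adjusted p = 6.73e-10), and its center samples lay close together. INHBA, the subunit of activin A, was at 55.8 to 174 CPM (median 141) in the center and 2.04 to 4.14 CPM (median 3.7) in skin (log2 fold change 5.16 ± 0.29, adjusted p = 6.38e-09). PTGS2, the inducible enzyme of prostaglandin synthesis, rose by 1.71 and overlapped between the groups.

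Chemokines were less uniform, with 11 of 15 higher, 2 lower and a median of 1.15. CCL2, which draws monocytes, was at 79.1 to 276 CPM (median 169) in the center and 4.27 to 9.54 CPM (median 7.39) in skin (log2 fold change 4.51 ± 0.28, adjusted p = 1.64e-08). CXCL14, a chemokine that skin makes constitutively, was at 965 to 1625 CPM (median 1354) in the center and 505 to 792 CPM (median 622) in skin (log2 fold change 1.05 ± 0.18, adjusted p = 1.47e-04). CXCL12, made by fibroblasts and vessel cells, rose by 0.79 with overlapping groups. CCL26, a chemokine for eosinophils, fell, with 1.02 to 8.09 CPM (median 2.68) in skin and 0 to 1.06 CPM (median 0.393) in the center (log2 fold change -3.11 ± 0.72, adjusted p = 0.0018). On the FPKM scale the median center level of CXCL14 (596) stood above those of CXCL8 (402) and CCL2 (209.7).

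Complement genes rose in 9 of 14 and fell in 1, with a median of 1.88. C5AR1, the receptor for the fragment C5a, was at 65.5 to 186 CPM (median 144) in the center and 5.69 to 13.7 CPM (median 10.2) in skin (log2 fold change 3.76 ± 0.30, adjusted p = 1.34e-07), and CFB, a protease of the alternative pathway, rose by 3.35. C3, the central component, was at 18.8 to 62.6 CPM (median 24.8) in the center and 15.9 to 41.6 CPM (median 25.3) in skin and was not called (log2 fold change 0.19 ± 0.32, adjusted p = 0.623). CD55, which protects host cells from complement, fell by 0.80 on the log2 scale, with 13.3 to 18.6 CPM (median 17.6) in the center and 20.3 to 35.2 CPM (median 29) in skin.

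Interferon response and antigen presentation genes rose in 15 of 17, none fell, and the median was 1.51. MX2, an interferon-induced antiviral GTPase, was at 62.6 to 141 CPM (median 112) in the center and 8.82 to 21.1 CPM (median 12.9) in skin (log2 fold change 2.81 ± 0.27, adjusted p = 9.7e-07). MX1 and ISG15, induced by the same cytokines, rose by 2.07 and 1.57. CD74, the invariant chain of class II molecules, was at 1209.8 to 2068 CPM (median 1589) in the center and 1050.5 to 1407 CPM (median 1233) in skin and missed the threshold (log2 fold change 0.35 ± 0.15, adjusted p = 0.0504), though it was called in the limma block (0.34) and in the summed and paired one (0.51).

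T and NK cell genes rose in 13 of 15, with a median of 2.57. CD3E, a chain of the T cell receptor complex, was at 6.22 to 8.96 CPM (median 7.44) in the center and 0.887 to 1.94 CPM (median 1.33) in skin (log2 fold change 2.42 ± 0.22, adjusted p = 5.37e-07), and CD8B, a co-receptor of cytotoxic T cells, was at 1.82 to 3.36 CPM (median 2.39) in the center and 0 to 0.32 CPM (median 0.0283) in skin (log2 fold change 4.87 ± 0.65, adjusted p = 1.78e-05). GATA3, a factor of T cells that epidermis also expresses, fell, with 171 to 371 CPM (median 338) in skin and 3.68 to 6.71 CPM (median 4.99) in the center (log2 fold change -5.93 ± 0.25, adjusted p = 4.94e-10). GATA3 is abundant enough to lower the summed level of the list, to 104 to 194 CPM (median 139) in the center and 190.1 to 386 CPM (median 357) in skin, although most members rose. In bulk samples fewer cells of a type and less RNA per cell cannot be told apart.

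B and plasma cell genes rose in 4 of 9 and none fell. MS4A1, CD79A and PAX5, which mark B cells, had medians of 1.16, 1.7 and 1.36 CPM in the center and 0.279, 0.407 and 0.209 CPM in skin. Their adjusted p were 0.0331, 0.022 and 0.0168, and each lost its call without the center of animal 6, wound F, with log2 fold changes of 1.57, 1.49 and 1.93 in place of 1.83, 1.73 and 2.45. MS4A1 also lost its call with the animal as a block in animals 4 to 6 (1.79) and with the wounds summed and paired (1.92), and the protein match of CD79A names another gene. JCHAIN, the joining chain of secreted antibodies, rose by 1.17. That call was lost in wounds F alone (0.72), with the skin of animals 1 to 3 alone (0.91) and with all samples in a single fit (1.21).

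Mast and dendritic cell genes rose in 8 of 12 and 1 fell. CCR7, the receptor that guides migrating dendritic cells and lymphocytes, was at 23.7 to 38.4 CPM (median 31.2) in the center and 0.365 to 1.26 CPM (median 0.616) in skin (log2 fold change 5.53 ± 0.27, adjusted p = 1.8e-09). CD207, the langerin of epidermal Langerhans cells, fell, with 1.2 to 12.8 CPM (median 5.4) in skin and 0.307 to 0.688 CPM (median 0.472) in the center (log2 fold change -3.52 ± 0.51, adjusted p = 3.64e-05).

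Amino acid and polyamine enzymes rose in 9 of 18 and fell in 4. ARG1 led the list, and ODC1, which turns ornithine into the polyamine putrescine, was at 187 to 356 CPM (median 277) in the center and 40.5 to 92.4 CPM (median 70) in skin (log2 fold change 1.96 ± 0.21, adjusted p = 2e-06). NOS2, which uses arginine to make nitric oxide, rose, with 0.961 to 2.85 CPM (median 2.68) in skin and 5.66 to 10.3 CPM (median 7.26) in the center (log2 fold change 1.7 ± 0.27, adjusted p = 7.86e-05). On the FPKM scale the median center level was 69.3 for ARG1 and 1.02 for NOS2. PYCR1, an enzyme of proline synthesis, rose by 1.95 and SHMT2, a mitochondrial serine and glycine enzyme, by 1.5, while PSAT1 and PHGDH, which build serine, fell, with log2 fold changes of -2.4 and -2.41.

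Blood vessel genes were higher without exception. All 21 blood vessel endothelium genes were higher, with a median log2 fold change of 1.88, and in 19 of them the groups did not overlap. The members summed to 2035 to 3011 CPM (median 2453) in the center and 527 to 860.4 CPM (median 681) in skin. PECAM1, an adhesion molecule of endothelial junctions, was at 549 to 859 CPM (median 596) in the center and 126 to 222 CPM (median 167) in skin (log2 fold change 1.88 ± 0.16, adjusted p = 2.33e-07). KDR, the main receptor for VEGFA, was at 123 to 234 CPM (median 176) in the center and 22.4 to 42.1 CPM (median 34.8) in skin (log2 fold change 2.39 ± 0.18, adjusted p = 1.09e-07).

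SELP, the adhesion molecule P-selectin, rose most in the vessel list, at 17.4 to 51.2 CPM (median 26.4) in the center and 0.391 to 2.59 CPM (median 1.09) in skin (log2 fold change 4.49 ± 0.39, adjusted p = 3.48e-07). CDH5 and PLVAP, of endothelial junctions and fenestrae, rose by 2.16 and 2.27. ESM1 and APLN, which sprouting tip cells make, rose by 3.06 and 2.32, and ANGPT2, which loosens vessels, by 2.09. VWF, the clotting factor stored in endothelium, rose by 1.12. In the 3 wounds F alone and in the 3 wounds G alone all 21 genes were again higher.

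Lymphatic genes did not share that shift: 2 of 7 rose, 1 fell, and the median was -0.15. Their direction depended on the wound. In wounds F alone 2 rose and 3 fell, with a median of -0.45, and in wounds G alone 3 rose and none fell, with a median of 0.44. LYVE1, which macrophages can also carry, was at 17.1 to 34.5 CPM (median 27.3) in the center and 3.43 to 11.9 CPM (median 9.06) in skin (log2 fold change 1.61 ± 0.25, adjusted p = 8e-05). PROX1, the factor that sets lymphatic identity, was at 0.745 to 4.96 CPM (median 1.61) in the center and 1.04 to 5.21 CPM (median 2.89) in skin (log2 fold change -0.49 ± 0.49, adjusted p = 0.386), and FLT4, the receptor for VEGFC, was at 5.36 to 15.1 CPM (median 10.8) in the center and 7.99 to 15.6 CPM (median 11.4) in skin (log2 fold change -0.17 ± 0.24, adjusted p = 0.552). CCL21, a chemokine of lymphatic vessels, fell by 1.36, a call that was lost with the animal as a block in animals 4 to 6 (-1.51).

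**Figure D3:**
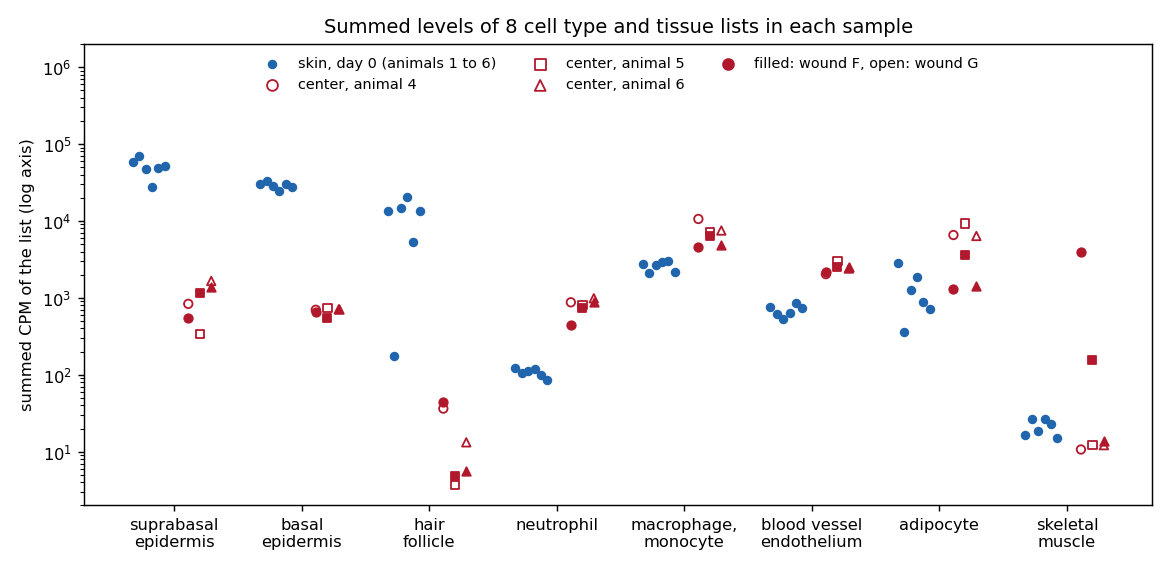
Summed CPM of 8 cell-type gene lists in each sample (vertical axis, log scale), with skin in blue and the day 4 center in red. Filled points are wounds F, open points wounds G, and the marker shape gives the animal. Center samples lie between 2035 and 3011 CPM for blood vessel genes, above all skin samples, and 2 center samples, both of wounds F, lie above all skin samples for skeletal muscle.

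The provisional matrix and matricellular list rose in 12 of 19 and fell in 3, with a median of 2.06. TNC, the matricellular protein tenascin C, was at 949 to 4155 CPM (median 1968) in the center and 27.7 to 63.5 CPM (median 43.9) in skin (log2 fold change 5.66 ± 0.38, adjusted p = 2.7e-08). SPP1, osteopontin, was at 158 to 1052 CPM (median 349) in the center and 6.64 to 24.4 CPM (median 16.8) in skin (log2 fold change 4.6 ± 0.49, adjusted p = 2.51e-06). THBS1, which can activate latent TGF-beta, rose by 2.66, FN1, fibronectin, by 2.06, and HAS2, a hyaluronan synthase, by 2.69.

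POSTN, periostin, went the other way. It was at 2902.5 to 6746.5 CPM (median 3619.7) in skin and 14.3 to 1144 CPM (median 587) in the center (log2 fold change -2.89 ± 0.74, adjusted p = 0.00361). Among the center samples POSTN ranged from 14.3 CPM in animal 6, wound F, to 1144 CPM in animal 5, wound F, and all center samples lay below all skin samples. EDIL3, an integrin ligand of endothelium, fell by 2.91.

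Fibrillar and associated collagens were split. Of 15 genes, 9 rose and 1 fell, with a median of 0.63, but the most abundant ones did not differ detectably from skin. COL1A1 (ENSSSCG00025071146), a chain of type I collagen, was at 15833 to 38486 CPM (median 25745) in the center and 12037 to 48682 CPM (median 19712) in skin (log2 fold change 0.04 ± 0.34, adjusted p = 0.924). COL1A2, its partner chain, was at 10779 to 23889 CPM (median 15424) in the center and 9891 to 37891 CPM (median 17387) in skin (log2 fold change -0.40 ± 0.32, adjusted p = 0.29). COL3A1, type III collagen, was at 17079 to 31943 CPM (median 24895) in the center and 13650.0 to 41039 CPM (median 21094) in skin (log2 fold change -0.07 ± 0.28, adjusted p = 0.841).

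The spread between samples was wide for all of them, in skin most of all. COL5A2, a type V chain that helps start fibrils, was at 2397 to 4631.5 CPM (median 2944) in the center and 303 to 872 CPM (median 488) in skin (log2 fold change 2.62 ± 0.28, adjusted p = 2.03e-06). COL12A1, which sits on fibril surfaces, was at 322 to 2650.5 CPM (median 785) in the center and 249 to 602 CPM (median 302) in skin (log2 fold change 1.63 ± 0.45, adjusted p = 0.00569), and it fell short of the threshold in wounds G alone (0.51) and with the animal as a block in animals 4 to 6 (1.3). COL14A1, a related fibril-associated collagen, fell by 1.19. The median FPKM in the center was 4164 for COL1A1, 4193 for COL3A1 and 403 for COL5A2.

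Enzymes that process collagen rose more evenly than the collagens, in 15 of 18 with none lower and a median of 2.02. SERPINH1, the collagen chaperone HSP47, was at 783 to 2818 CPM (median 1476) in the center and 135 to 275 CPM (median 197) in skin (log2 fold change 2.92 ± 0.29, adjusted p = 1.3e-06). PLOD2, the lysyl hydroxylase for telopeptide cross-links, was at 80.9 to 238 CPM (median 126) in the center and 8.09 to 12.6 CPM (median 10.5) in skin (log2 fold change 3.8 ± 0.26, adjusted p = 4e-08). P4HA3, a prolyl hydroxylase subunit, rose by 3.55. LOX, the lysyl oxidase that cross-links fibers, was at 228 to 506 CPM (median 332) in the center and 201 to 704 CPM (median 264) in skin and was not called (log2 fold change -0.11 ± 0.33, adjusted p = 0.774).

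Proteoglycans and elastic fiber genes moved in both directions, with 7 of 15 higher, 6 lower and a median of -0.71. BGN, biglycan, was at 583 to 1458 CPM (median 954) in the center and 119 to 205 CPM (median 152) in skin (log2 fold change 2.7 ± 0.22, adjusted p = 1.76e-07), whereas DCN, decorin, was at 1198.5 to 1897.5 CPM (median 1362) in the center and 1695 to 4483 CPM (median 2383) in skin (log2 fold change -0.94 ± 0.24, adjusted p = 0.00308). ELN, elastin, fell, with 338 to 814 CPM (median 419) in skin and 17.4 to 138 CPM (median 45.7) in the center (log2 fold change -3.15 ± 0.46, adjusted p = 4.17e-05). EMILIN1, a glycoprotein of elastic fibers, rose by 2.99 and MFAP4, another, fell by 0.71 with overlapping groups. The MFAP4 call was lost with the wounds of an animal summed (-0.68) and with all samples in a single fit (-0.67). It was also lost with the skin of animals 1 to 3 alone (-0.41) and in wounds G alone (-0.42). OGN, osteoglycin, was at 13.7 to 110.1 CPM (median 79) in the center and 78 to 202 CPM (median 115) in skin and was not called (log2 fold change -0.91 ± 0.49, adjusted p = 0.117), except with the wounds summed and paired (-1.06).

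Matrix proteases and their inhibitors rose in 12 of 17 and fell in 3, with a median of 1.75. MMP9, a gelatinase of white blood cells and keratinocytes, was at 231 to 1799 CPM (median 441) in the center and 2.45 to 5.64 CPM (median 3.14) in skin (log2 fold change 7.53 ± 0.56, adjusted p = 8.57e-08). MMP1, a collagenase, was at 23.4 to 164 CPM (median 50.4) in the center and 0.301 to 0.614 CPM (median 0.533) in skin (log2 fold change 7.1 ± 0.55, adjusted p = 1.22e-07). ADAM12, a protease of activated fibroblasts, was at 172 to 562 CPM (median 342) in the center and 4.07 to 13.7 CPM (median 9.85) in skin (log2 fold change 5.15 ± 0.36, adjusted p = 4.77e-08). Each of these 3 genes had every center sample above every skin sample.

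TIMP1, a secreted inhibitor of these proteases, was at 596 to 1347 CPM (median 1024) in the center and 26.3 to 37.4 CPM (median 29.9) in skin (log2 fold change 4.97 ± 0.20, adjusted p = 3.9e-10), while TIMP3, a matrix-bound inhibitor, fell by 2.04. MMP14, which sits on the cell surface, rose by 1.22. MMP13, a further collagenase, was low, at 0.527 to 14.1 CPM (median 1.34) in the center and 0 to 0.623 CPM (median 0.431) in skin (log2 fold change 3.15 ± 0.89, adjusted p = 0.00684). MMP7, which glands make, fell, with 5.71 to 17.7 CPM (median 12) in skin and 0 to 0.79 CPM (median 0.0792) in the center.

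Plasminogen and clotting genes rose in 8 of 13 and fell in 3. PLAUR, the urokinase receptor, was at 57.3 to 303 CPM (median 196) in the center and 5.77 to 13 CPM (median 7.25) in skin (log2 fold change 4.54 ± 0.39, adjusted p = 3.36e-07), and PLAU, urokinase itself, rose by 2.75. TFPI, the inhibitor of the tissue factor pathway, fell by 1.49.

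Contractile and mural cell genes were divided, with 6 of 16 higher, 7 lower and a median of 0.05. PDGFRA, a receptor of fibroblasts, was at 395 to 769.8 CPM (median 610.4) in the center and 56.8 to 92.7 CPM (median 66.3) in skin (log2 fold change 3.1 ± 0.19, adjusted p = 1.22e-08), and FAP, a protease of activated fibroblasts, rose by 1.95. MYH11 and ACTG2, of mature smooth muscle, fell, with log2 fold changes of -2.85 and -2.91. ACTA2, the smooth muscle actin by which myofibroblasts are recognized, was at 201 to 369 CPM (median 303) in the center and 304 to 644 CPM (median 406) in skin (log2 fold change -0.53 ± 0.19, adjusted p = 0.0251).

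The ACTA2 call was lost without the center of animal 5, wound F (-0.50), without that of animal 6, wound G (-0.43), and without the skin of animal 4 (-0.37). It was also lost with library totals (-0.39), with the wounds of an animal summed (-0.50) and with all samples in a single fit (-0.49). The skin of animals 4 to 6 alone (-0.57) or 1 to 3 alone (-0.45), and wounds F alone (-0.40) or G alone (-0.58), gave no call either. TAGLN, another contractile protein, was at 209 to 542 CPM (median 337) in the center and 231 to 513 CPM (median 386) in skin (log2 fold change -0.10 ± 0.26, adjusted p = 0.739). RGS5, of pericytes, was at 148 to 253 CPM (median 182) in the center and 110.1 to 249 CPM (median 158) in skin (log2 fold change 0.20 ± 0.20, adjusted p = 0.396). DES, the filament of muscle cells, was at 24.2 to 1059.8 CPM (median 32.2) in the center with its highest value in the library rich in muscle transcripts, and its log2 fold change of 1.09 became -1.54 without that library.

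Genes of the cell cycle rose in 22 of 24, with 1 lower and a median of 1.74. CCNB1, the mitotic cyclin, was at 47 to 118 CPM (median 86) in the center and 12.4 to 16.9 CPM (median 15.3) in skin (log2 fold change 2.46 ± 0.20, adjusted p = 2.18e-07). CDK1, its kinase, rose by 2.22, PLK1, a further mitotic kinase, by 2.82, and TOP2A, which untangles DNA, by 1.75. MKI67, the proliferation antigen, was at 79.2 to 213 CPM (median 92.6) in the center and 29.6 to 59.7 CPM (median 45.1) in skin (log2 fold change 1.33 ± 0.26, adjusted p = 4.94e-04). CCND1, a G1 cyclin, fell by 0.60, a call that was lost with the animal as a block in animals 4 to 6 (-0.63).

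The unfolded protein response list, which holds the chaperones of cells that secrete much protein, rose in 17 of 18, none fell, and the median was 1.67. HSPA5, the chaperone BiP, was at 549 to 1017 CPM (median 874) in the center and 184 to 269 CPM (median 212) in skin (log2 fold change 1.93 ± 0.15, adjusted p = 1.36e-07). MANF, a secreted stress protein of the endoplasmic reticulum, rose by 2.35, CRELD2, another, by 2.09, and CREB3L1, a factor for collagen secretion, by 1.45.

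Hypoxia and glycolysis genes did not move as a block: 10 of 20 rose and 7 fell. LDHA, which makes lactate, was at 516 to 1061 CPM (median 903) in the center and 175 to 275 CPM (median 216) in skin (log2 fold change 1.92 ± 0.17, adjusted p = 4.38e-07), and SLC16A3, which exports it, rose by 4.33. ADM, a vasodilator peptide induced by low oxygen, rose by 2.28, VEGFA by 1.09 and PGK1, a glycolytic enzyme, by 0.89. EGLN3, an oxygen-sensing hydroxylase, fell by 2.02. SLC2A1, a glucose transporter that epidermis also expresses, fell, with 168 to 262 CPM (median 194) in skin and 34.4 to 87.8 CPM (median 59) in the center (log2 fold change -1.8 ± 0.19, adjusted p = 2.42e-06), though the table's name column calls that gene P3H1 and only its protein match gives SLC2A1.

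Mitochondrial respiration genes rose in 13 of 18 with 1 lower, by a median of 0.53. CYCS, cytochrome c, rose by 1.45, SDHA, of complex II, by 0.83 and ATP5F1A, of ATP synthase, by 0.82. PPARGC1A, a coactivator of mitochondrial biogenesis, fell by 2.69, with 0.67 to 3.12 CPM (median 1.73) in skin and 0.115 to 0.408 CPM (median 0.275) in the center.

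WNT and BMP signals and antagonists split, with 6 of 21 higher, 11 lower and a median of -1.12. SFRP2, a secreted WNT modulator of fibroblasts, was at 1062 to 3483 CPM (median 2111) in the center and 7.94 to 27.1 CPM (median 15.4) in skin (log2 fold change 7.08 ± 0.44, adjusted p = 1.43e-08). WNT5A, a ligand of the noncanonical pathway, was at 32.5 to 449 CPM (median 207) in the center and 19.5 to 33.6 CPM (median 25) in skin (log2 fold change 3.09 ± 0.49, adjusted p = 8.79e-05). WIF1, a WNT inhibitor, fell by 5.29. BMP7, a ligand of epithelia, fell, with 120.0 to 162 CPM (median 136) in skin and 0.484 to 1.45 CPM (median 0.846) in the center (log2 fold change -7.41 ± 0.23, adjusted p = 3.78e-11).

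Immediate early genes, which respond within minutes of a stimulus, were lower in 8 of 17 and higher in 3. FOSL1, an AP-1 subunit, was at 10.8 to 24.2 CPM (median 20.5) in the center and 0.361 to 3.07 CPM (median 0.967) in skin (log2 fold change 3.64 ± 0.49, adjusted p = 2.08e-05). FOSB and EGR1 fell, with log2 fold changes of -2.05 and -1.34, and FOS was at 88.6 to 328 CPM (median 158) in the center and 155 to 667 CPM (median 229.8) in skin without a call (log2 fold change -0.79 ± 0.39, adjusted p = 0.0909). The EGR1 call was lost with the animal as a block in animals 4 to 6 (-1.36) and with the wounds summed and paired (-1.19). KLF4, a factor that also drives the epidermal barrier, fell, with 518 to 896 CPM (median 788) in skin and 13.8 to 58.9 CPM (median 39.9) in the center (log2 fold change -4.31 ± 0.34, adjusted p = 1.24e-07).

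Circadian clock genes were lower in 11 of 16, with a median of -0.98. HLF, a clock output factor, fell, with 94.3 to 124 CPM (median 115) in skin and 5.27 to 16 CPM (median 10.4) in the center (log2 fold change -3.49 ± 0.26, adjusted p = 8.76e-08). DBP, NR1D1, PER3 and PER1 fell, with log2 fold changes of -2.74, -2.28, -0.99 and -0.97, and NPAS2, a partner of the activator complex, rose by 0.99. The hour of sampling was not given in the labels, and its part in these values was not tested.

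Genes of the epidermis and its appendages were far lower in the center. All 16 basal epidermis genes were lower, with a median of -5.77, and 18 of 19 suprabasal and barrier genes, with a median of -8.39. Basal members summed to 554 to 733 CPM (median 704) in the center and 24579 to 33397 CPM (median 29068) in skin. Suprabasal members summed to 339 to 1659 CPM (median 990.4) in the center and 27889 to 70402 CPM (median 50390.0) in skin.

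KRT10, a keratin of the layers above the basal one, was at 9939.8 to 26998 CPM (median 18756) in skin and 22.9 to 107 CPM (median 46.3) in the center (log2 fold change -8.55 ± 0.46, adjusted p = 4.09e-09). KRT5, the basal keratin, was at 6670.1 to 10389 CPM (median 8418) and 13.9 to 49.9 CPM (median 33.7) (log2 fold change -8.09 ± 0.41, adjusted p = 2.47e-09). TP63, the factor that keeps the epidermal lineage, was at 216 to 269.8 CPM (median 250.4) and 0 to 1.23 CPM (median 1.01) (log2 fold change -8.17 ± 0.39, adjusted p = 1.58e-09). CDH1, the adhesion protein of epithelial cells, was at 421 to 524 CPM (median 464) and 0.132 to 2.25 CPM (median 1.22) (log2 fold change -8.56 ± 0.47, adjusted p = 4.6e-09). No center sample reached the lowest skin sample for any of these genes.

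The remaining epidermal genes named here fell as well. KRT1, KRTDAP and DSG1 fell, with log2 fold changes of -8.45, -8.06 and -9.05. COL17A1, DSP and KRT15 fell, with log2 fold changes of -8.09, -8.73 and -6.03, so hemidesmosome, desmosome and basal keratin were all far lower. KRT77 had the largest fitted fall, from 782 to 1739 CPM (median 1177) to 0 to 0.588 CPM (median 0.18) (log2 fold change -12.38 ± 0.62, adjusted p = 2.27e-09). Keratin genes resemble each other, and reads of close copies could have been split between them.

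Genes of the keratinocytes that move in from a wound edge could be read only in part. Only 7 of 13 listed genes were matched to the table and 5 were tested, of which 1 rose and 3 fell. The core keratins of that list, KRT6A, KRT16 and KRT17, were not matched, so their levels are not known here. KRT6B, a keratin of activated epidermis and of hair follicles, fell, with 51.2 to 263 CPM (median 181) in skin and 0.408 to 8.28 CPM (median 4.16) in the center (log2 fold change -5.41 ± 0.67, adjusted p = 9.17e-06). HBEGF, a ligand of the EGF receptor that macrophages also make, rose by 1.64, and AREG, another ligand, was at 5.48 to 20.6 CPM (median 9.78) in the center and 3.63 to 20.9 CPM (median 16.3) in skin without a call (log2 fold change -0.40 ± 0.39, adjusted p = 0.383), except with the wounds summed and paired (-0.58).

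All 15 hair follicle genes tested were lower, with a median of -9.42. Only 7 of the 15 were called in the limma block with an estimated correlation, where TCHH (-10.52) and KRT82 (-9.94) lost their calls. KRT71, of the inner root sheath, was at 9.82 to 6405 CPM (median 4397) in skin and 0 to 14 CPM (median 2.9) in the center (log2 fold change -9.42 ± 1.52, adjusted p = 1.04e-04), and its groups overlapped through the skin of animal 2, at 9.82 CPM. TCHH, trichohyalin, was at 1.34 to 688 CPM (median 528) and 0 to 1.14 CPM (median 0.0575). KRT82 and KRT75, of the hair cuticle and the companion layer, fell, with log2 fold changes of -11.09 and -12.08, the latter from 4 counts in the whole center group. Without the skin of animal 2 and the center of animal 4, wound F, 17 of 17 genes tested were lower. The skin of animal 2 was left out for its low level of these same genes, so this count is no independent check.

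A few genes had no count in any center sample. KRT73, of the inner root sheath, was at 1.17 to 59.3 CPM (median 43) in skin and at least 1299-fold lower in the center, with 3 counts over the group as the floor. CA6, a secreted carbonic anhydrase, was at 8.81 to 61.1 CPM (median 35) in skin and at least 1211-fold lower, and BMP3, a BMP antagonist, was at 16.2 to 33.4 CPM (median 23.6) and at least 942-fold lower. HEPHL1, a ferroxidase, had 1 count in the center group, and its ratio of skin over center was 6602.5 (exact 95% Poisson interval 1185 to 260780.0, counting error only). FLG2, of the cornified layer, TEDDM1A, and SCEL, of the cornified envelope, fell, with log2 fold changes of -12.26, -11.12 and -10.72.

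Melanocyte genes were lower in 3 of 5 tested and higher in 1, and Schwann cell and nerve genes were lower in 4 of 10 and higher in none. The melanocyte list summed to 36.4 to 69.7 CPM in the center and 48.7 to 92 CPM in skin. The Schwann cell and nerve list summed to 127.7 to 242.5 CPM in the center and 213.8 to 252.5 CPM in skin. SOX10, which marks melanocytes and Schwann cells, fell, with 5.27 to 10.8 CPM (median 8.35) in skin and 0 to 1.32 CPM (median 0.666) in the center (log2 fold change -3.49 ± 0.55, adjusted p = 8.29e-05). PMEL, of pigment granules, fell by 1.42, a call that was lost with the wounds summed and paired (-1.42). DCT, a pigment enzyme, was at 0.307 to 1.03 CPM (median 0.60) in the center and 0.567 to 1.25 CPM (median 0.958) in skin without a call, and TYR, tyrosinase, had no count in any of the 12 samples. KIT, which melanocytes share with mast cells, rose by 1.06.

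Fatty acid and sterol synthesis fell in 9 of 17 and rose in 1. ELOVL3, of sebaceous glands and fat, fell, with 0 to 26 CPM (median 14.7) in skin and 0 to 0.63 CPM (median 0.0227) in the center (log2 fold change -6.49 ± 1.24, adjusted p = 4.08e-04), a call that was lost in the limma block (-5.84). ACLY, which supplies acetyl-CoA, rose by 0.54. FASN and SCD, which build and desaturate fatty acids, overlapped widely and were not called (log2 fold change -0.32 ± 0.40, adjusted p = 0.493, and log2 fold change 0.86 ± 0.65, adjusted p = 0.256).

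Fat cell genes were higher, with 6 of 10 called and a median of 1.93. FABP4, a fatty acid carrier, was at 380.0 to 2393 CPM (median 1372.5) in the center and 22.7 to 663 CPM (median 213) in skin (log2 fold change 2.31 ± 0.68, adjusted p = 0.00845), for the gene whose protein match is FABP4 while its name column gives another symbol. ADIPOQ, adiponectin, was at 376 to 2971 CPM (median 1343) in the center and 50.4 to 936 CPM (median 281) in skin (log2 fold change 1.89 ± 0.68, adjusted p = 0.0254), and lost its call without the center of animal 5, wound G (1.51), or without the skin of animal 5 (1.78) or 6 (1.70). PPARG, the master factor of fat cells, rose by 2.48. PLIN1, which coats fat droplets, was at 73.3 to 852 CPM (median 407) in the center and 16.5 to 344 CPM (median 106) in skin without a call (log2 fold change 1.5 ± 0.74, adjusted p = 0.0873). It was called with the wounds summed and paired (2.18) and in wounds G alone (2.28). Leaving out the center of animal 4, wound F (1.75), or the skin of animal 1 (2.00) also gave a call.

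Among the day 4 center libraries, skeletal muscle transcripts stood out in 2, both from wounds F. ACTA1, skeletal actin, was at 743 CPM in the center of animal 4, wound F, at 26.5 CPM in that of animal 5, wound F, and at most 0.792 CPM in the other 4 center samples. The summed muscle list was at 3897 CPM, 154 CPM and 10.7 to 13.6 CPM in the same libraries, and at 15.3 to 26.6 CPM in skin. ACTA1 and TTN, the giant spring protein of muscle, rose by 7.97 and 6.77 in edgeR. DESeq2 gave neither an adjusted p. Both calls were lost with the animal as a block in animals 4 to 6 (6.67 and 4.24), in the limma block (2.63 and 2.66), with the skin of animals 4 to 6 alone (8.08 and 6.97) or of animals 1 to 3 alone (7.91 and 6.62), and in wounds G alone (-0.28 and 0.72). Without the center of animal 4, wound F, 2 muscle genes were higher and 1 lower. Without the center of animal 4, wound F, and the skin of animal 2, ACTA1 missed the threshold (3.42) and 1 of 7 muscle genes was higher and 1 lower, against 4 and 0 over all samples. HBB and ALAS2, of red cells, rose by 2.37 and 2.55, and both calls were lost without the center of animal 4, wound F (1.72 and 1.97).

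The 6 center samples were also compared among themselves. With the animal in the model, 700 of 14248 genes (4.91%) were higher in wounds F than in wounds G and 959 (6.73%) lower, called the same way. Leaving out both wounds of animal 4, 5 or 6 gave 1153, 340 or 141 higher and 1139, 691 or 152 lower, so these counts and the list counts built on them depend on single animals. Library totals in place of TMM gave 479 and 1345, and without the animal in the model none were called, against 3146 genes at an unadjusted p below 0.05. Between the 3 animals none of 14822 genes were called by edgeR, and 84 were called without the filter on low counts. At an unadjusted p below 0.05 there were 511, fewer than the 1 in 20 that chance gives. Each animal had only its wounds F and G, and the letter was not in that model. The animals are thus not shown to be alike. The labels give the letters but not the place of a wound on the back, so what a letter stands for could not be told.

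Collagen and cell cycle lists were higher in wounds F, while other matrix lists were mixed. Collagen processing genes were higher in wounds F in 15 of 18 (median log2 fold change 0.83), collagens in 10 of 15 (0.70) and cell cycle genes in 13 of 24 (0.60), with none lower in any of them. The provisional matrix list had 6 of 19 higher and none lower, proteoglycans and elastic fibers 5 of 15 higher and 4 lower, and matrix proteases 2 of 16 higher and 2 lower. COL1A1 was at 38486, 32224 and 34408 CPM in wounds F of animals 4, 5 and 6 and at 18595, 15833 and 19266 CPM in their wounds G (log2 fold change 0.96 ± 0.11, adjusted p = 0.00668). FN1 differed by 1.44 ± 0.17 (adjusted p = 0.00687), COL12A1 by 1.72 ± 0.20 (adjusted p = 0.00668) and WNT5A by 1.99 ± 0.27 (adjusted p = 0.00921). The following 4 genes were chosen after their values were seen, as the ones with the smallest p in each direction. PRSS35 was at 61.3, 20.2 and 46 CPM in wounds F of animals 4, 5 and 6 and 6.1, 2.38 and 6.22 CPM in their wounds G (log2 fold change 3.09 ± 0.17, adjusted p = 0.0051). ITGA11, a collagen-binding integrin chain, was at 76.7, 28 and 84.7 CPM in wounds F of animals 4, 5 and 6 and 16.2, 6.07 and 21.3 CPM in their wounds G (log2 fold change 2.13 ± 0.14, adjusted p = 0.0051).

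Wounds G were richer in fat, complement and macrophage genes. All 10 fat cell genes were lower in wounds F (median -2.16), as were 8 of 14 complement genes (-1.05), 8 of 23 macrophage genes (-0.77) and 8 of 16 lipid synthesis genes (-0.58), with none higher. PLIN4, a fat droplet protein, was at 40.4, 112 and 42.2 CPM in wounds F of animals 4, 5 and 6 and 244, 453 and 220.1 CPM in their wounds G (log2 fold change -2.34 ± 0.15, adjusted p = 0.0051). GSN, gelsolin, was at 239, 372 and 227 CPM in wounds F of animals 4, 5 and 6 and 831, 1217 and 885 CPM in their wounds G (log2 fold change -1.84 ± 0.12, adjusted p = 0.0051). The direction was the same in all 3 animals for each of these genes, but that largely follows from choosing them by the smallest p over these same pairs.

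The choice of wound also moved comparisons with skin. Wounds G alone gave 9 of 10 fat cell genes higher than skin and a median of 2.74, whereas wounds F alone gave 1 and 0.38. SCD was not called over all 6 center samples but was higher than skin in wounds G alone (1.64), and FASN was lower than skin in wounds F alone (-1.36). Wounds F and G alone gave 4938 and 4560 genes higher than skin (31.7% and 29.1%) and 4967 and 4776 lower (31.9% and 30.4%).

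**Figure D4:**
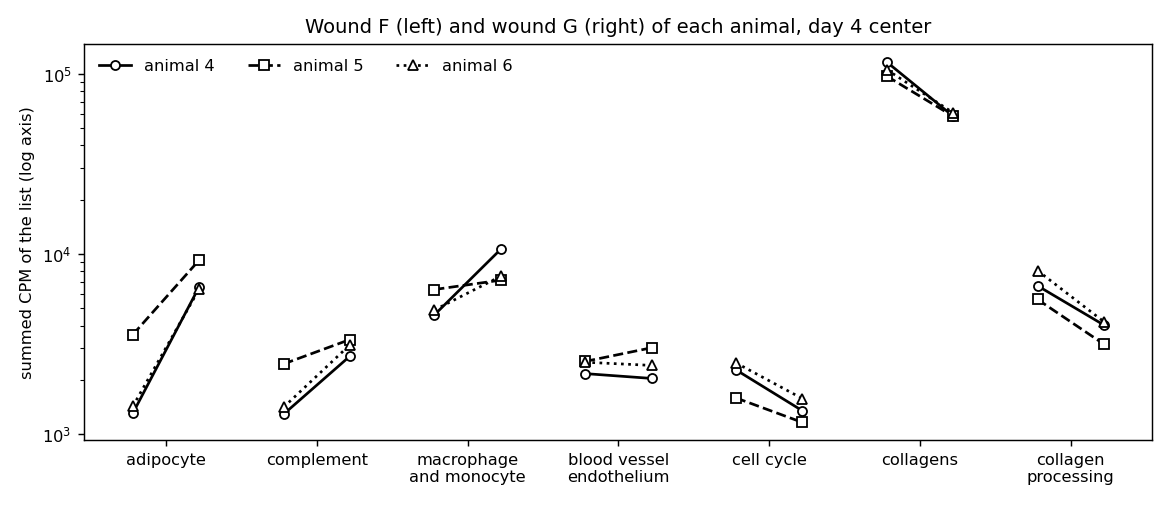
Summed CPM of 7 gene lists in the day 4 center (vertical axis, log scale), with wound F on the left, wound G on the right and a line for each of animals 4, 5 and 6. Fat cell genes rise from F to G in each animal, and collagen processing genes fall.

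The day 4 center was set against neighbouring days of the same 3 animals to place it in time. The wounds were A and L on day 2, F and G on day 4 and B and K on day 6, so the day and the wound letter cannot be told apart. The lists of collagens, collagen processing and the cell cycle differed between letters F and G within day 4 as well. So did COL12A1 and WNT5A. Of 14225 genes, 593 (4.17%) were higher on day 4 than on day 2 and 190 (1.34%) lower. Levels by day are CPM scaled over all 150 samples. The comparisons with day 2 and with skin share the 6 day 4 samples, so their values are given side by side and are not independent. These counts moved with single libraries, from 212 to 820 higher and from 32 to 416 lower as each sample was left out, and leaving out any 1 of the 12 moved at least 1 of them by more than 1.5-fold. Both neighbouring days held at least 1 center library rich in muscle transcripts. ACTA1 was at 0 to 35451 CPM (median 0.355) on day 2 and 0 to 23971 CPM (median 1.95) on day 6. The paper names a day 2 center sample among those that deviate from their replicates.

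Several matrix gene lists were higher than on day 2. Collagen processing genes were higher on day 4 in 14 of 18 (median 1.3), collagens in 10 of 15 (1.03) and matrix proteases in 8 of 16 (0.71), with none lower. COL1A1 was at 4496 to 11207 CPM (median 8283) on day 2, 14736 to 36649 CPM (median 24257) on day 4 and 11445 to 45506 CPM (median 18662) in skin, with a day 4 minus day 2 difference of 1.61 ± 0.29 (adjusted p = 0.0133). LOX was at 65.6 to 139 CPM (median 114), 215 to 482 CPM (median 320.2) and 191 to 663 CPM (median 249) (log2 fold change 1.51 ± 0.24, adjusted p = 0.00846). On both genes the day 2 center lay below every skin sample, and the day 4 center overlapped skin.

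SFRP2 was at 157 to 748 CPM (median 393) on day 2 and 989 to 3261 CPM (median 2025) on day 4 (log2 fold change 2.26 ± 0.42, adjusted p = 0.0139). WNT5A was at 10.7 to 32.2 CPM (median 16.4) and 30.2 to 438 CPM (median 195) (log2 fold change 3.49 ± 0.53, adjusted p = 0.0084). MMP1 was at 2.8 to 10.9 CPM (median 6.48) and 21.7 to 157 CPM (median 47.6) (log2 fold change 3.23 ± 0.49, adjusted p = 0.00839). CXCL14 was at 124 to 554 CPM (median 313) on day 2, near or below skin, and 919 to 1547.5 CPM (median 1286) on day 4, above all skin samples (log2 fold change 1.84 ± 0.36, adjusted p = 0.015). Cell cycle genes were higher on day 4 in 9 of 24, among them MKI67 by 1.49 (adjusted p = 0.0217).

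Inflammatory genes were already higher than skin on day 2, in 12 of 15 neutrophil, 20 of 23 macrophage and 16 of 21 interleukin genes, against 30.0% of all genes. No neutrophil, macrophage or interleukin gene was called between the days, out of 15, 23 and 22 tested, against 5.5% of all genes called in either direction. At that share lists of this size would hold few calls or none, so they are not shown to be unchanged. Without a call, the median of IL11 was 7.67 CPM on day 2 and 96.4 CPM on day 4. That of INHBA was 25.9 and 134.6 CPM, and that of IL6 went the other way, at 29.2 and 20.3 CPM. CXCL8 was at 26.9 to 1195.5 CPM (median 192) on day 2 and 215 to 2768.5 CPM (median 777) on day 4 (log2 fold change 1.45 ± 0.85, adjusted p = 0.324), and the samples of each day spread too widely to separate them. CCR7, of migrating dendritic cells, was higher on day 4 (log2 fold change 1.46 ± 0.25, adjusted p = 0.0118). Among lower genes, HK2, a hexokinase, fell, with 111 to 583 CPM (median 192) on day 2 and 46 to 81.2 CPM (median 57.5) on day 4 (log2 fold change -2.14 ± 0.38, adjusted p = 0.0126), close to its level of 21.3 to 97.1 CPM (median 59.5) in skin, and C3 fell by 1.84.

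The gene with the largest rise from day 2 was CCN4, a matricellular WNT target, chosen after its values were seen, at 0.276 to 1.31 CPM (median 0.561) on day 2 and 1.35 to 176 CPM (median 24.3) on day 4 (log2 fold change 6.39 ± 0.99, adjusted p = 0.0084). COL7A1, of the anchoring fibrils under the epidermis, was chosen in the same way, at 1.53 to 4.69 CPM (median 4.06) on day 2 and 6.76 to 421 CPM (median 38.3) on day 4 (log2 fold change 4.86 ± 0.86, adjusted p = 0.0122), and its day 4 range overlapped the 247 to 497 CPM (median 385) of skin. The day 4 center samples spread widely on both genes.

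Against day 6, none of 13973 genes (0.0%) were called in either direction by edgeR, and DESeq2 called 13 higher and 45 lower. At an unadjusted p below 0.05 there were 992, somewhat more than the 1 in 20 that chance gives. IL11 was at 16 to 158 CPM (median 96.4) on day 4 and 145 to 493 CPM (median 369) on day 6 (log2 fold change -1.93 ± 0.45, adjusted p = 0.467). MMP13 was at 0.496 to 13.7 CPM (median 1.25) and 6.09 to 164 CPM (median 50.3) (log2 fold change -4.2 ± 0.99, adjusted p = 0.479). A gene that missed the threshold here is not shown to be equal on the 2 days.

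**Figure D5:**
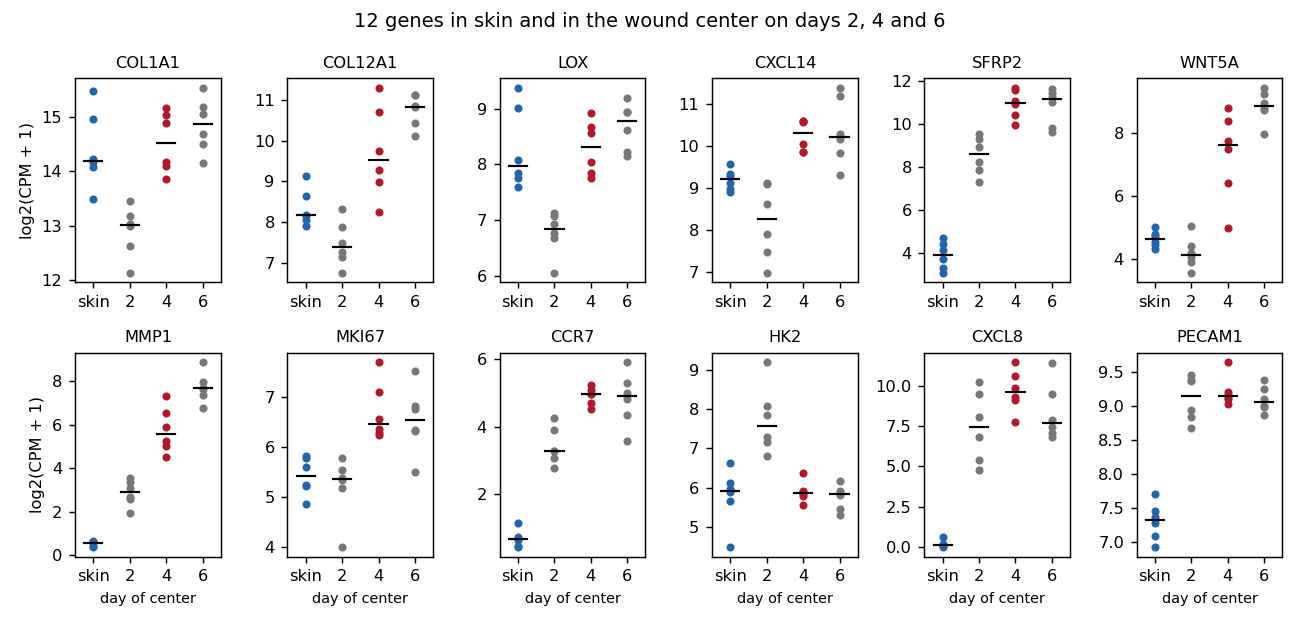
Levels of 12 named genes in skin and in the wound center of days 2, 4 and 6, as log2(CPM + 1) with scaling over all 150 samples (vertical axis), a point per sample and a bar at the median. COL1A1 on day 2 lies between 4496 and 11207 CPM, below the day 4 range of 14736 to 36649 CPM, while PECAM1 overlaps between the 3 days.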

How the data were processed

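Poly-A RNA of 150 samples was sequenced by a service provider, which removed low-quality reads, aligned the rest to a pig genome and counted them. The authors deposited these counts per gene without normalization, and FPKM, counts per kilobase of gene scaled for library size, with a further factor per sample. The aligner, the counter, the genome build and whether counting used strand were not given in the sources used here. The table lists 30461 genes on 2337 contigs. Symbols came from its name column (12300 genes) or a protein match (9387 genes). Both were given and differed for 583 genes, among them those printed as OSM, CD79A, FABP4 and SLC2A1.

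The quasi-likelihood test of edgeR 4.0.16 (R 4.3.3) was run on the counts of the groups compared, after TMM scaling and a filter on low counts (filterByExpr, at least 10 counts in enough samples and 15 in all), and p was adjusted by Benjamini-Hochberg over all genes tested. Alternatives used limma 3.58.1 and DESeq2 1.42.0, and tables Python 3.11.15. The fits were also run on simulated data in which few genes changed and samples shared no animal. That run does not cover a contrast with this many changed genes or wounds that share an animal. Wounds were the samples, so p-values measure the spread between wounds and animals together. The pairing comes from the animal number in the labels, and limma's estimate of the correlation of samples within an animal, over all genes, was 0.0051. A floor of 3 counts covers counting error only.

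Named genes are the core genes of each list, the member of each list with the largest rise and fall among genes called, and the 10 genes with the largest rise and the 10 with the largest fall among genes with a mean of at least 10 CPM whose groups do not overlap. The members and the lists were chosen with earlier results of these data known. Some named genes are not reported here. Alternatives are given in the closing section. No sequence is shown, since no genome was used.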

Additional observations from a re-analysis of the deposited data

Results flagged for a closer look

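Dixon's ratio, the gap between an extreme sample and its neighbour over the whole range of a group, was taken for each named gene reported here and each gene list as log2(CPM + 1). It passed Dixon's 95% critical value in 23 of 426 groups of 6 samples, where chance gives about 1 in 20, or 21.3.

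In the center of animal 4, wound F, 5 values stood apart: DES (0.830), TNNT3 (0.715), MYH3 (0.707), ATP5F1A (0.658) and the summed neutrophil list (0.627). In the skin of animal 2, 7 values stood apart: KRT71 (0.821), TCHH (0.765), the summed hair follicle list (0.718), AREG (0.765), COX5A (0.739), MMP9 (0.676) and SPP1 (0.633). The skin of animal 6 stood apart for LYVE1 (0.733), the summed circadian list (0.675), INHBA (0.645), CCL2 (0.638) and LTF (0.634), and the skin of animal 4 for KRTDAP (0.651) and KLF4 (0.631). Single values were NOS2 in the skin of animal 3 (0.723), the summed cell cycle list in the skin of animal 1 (0.645), PLAUR in the skin of animal 5 (0.648), and PECAM1 in the center of animal 5, wound G (0.736).

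Some genes moved in opposite directions under the same contrast. CXCL14 was above skin on day 4 (1.05) and below it on day 2 (-0.82), and the direct test between the days gave a difference of 1.84 (adjusted p = 0.015). COL12A1 was above skin on day 4 (1.63) and below it on day 2 (-0.86), with a difference of 2.47 (adjusted p = 0.0147). CKM, the creatine kinase of muscle, was above skin in wounds F alone (4.53) and below it in wounds G alone (-3.65), and wounds F and G differed by 7.32 (adjusted p = 0.0315). CKM was at 444, 18.4 and 0 CPM in wounds F of animals 4, 5 and 6, at 0.659, 0.594 and 0.343 CPM in their wounds G and at 3.21 to 13.1 CPM in skin, so animals 4 and 5 carry the difference and animal 6 goes the other way.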

How the results depend on the processing

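Across 26 alternatives to the comparison of the day 4 center with skin, 157 of 197 named genes kept their call throughout, as did 51 of 72 counts of list members within 1.5-fold. Of 5118 gene values, 4969 had the same call, 112 lost it, 32 gained one and 5 reversed, the last being DES (-1.54 to 1.34 as each sample was left out, the former without the center of animal 4, wound F, then -1.70 in wounds G alone and -1.30 without that library and the skin of animal 2), ACTA1 (-0.28 in wounds G alone) and CKM (-3.65 in wounds G alone). The counts of genes called stayed within 1.5-fold, at 4693 to 4970 higher and 4755 to 5263 lower as each sample was left out, and 2623 to 2745 and 2929 to 3250 at 2-fold or more. With the animal as a replicate block they were 4238 and 4263 (animals 4 to 6 alone), 4784 and 5066 (limma, all 12 samples), or 4576 and 4347 (wounds summed, paired). The limma block called 7 of 15 hair follicle genes and none of the muscle genes. JUNB, GREM1 and CD74 changed their call under several of these settings.

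Against day 2, 89 genes were lower without the filter, DESeq2 gave 1078 higher and 791 lower, the replicate block gave 526 and 141, and leaving out single samples gave 212 to 820 higher and 32 to 416 lower. Against day 6, DESeq2 gave 13 higher and 45 lower, and leaving out single samples gave 0 and 0 to 1. Between wounds F and G, no gene was called in either direction without the replicate block (0 and 0), 1111 were higher without the filter, library totals moved the share of higher calls from 42.2% to 26.3%, and leaving out 1 animal gave 141 to 1153 higher and 152 to 1139 lower. Between animals, 84 genes were called without the filter. The cause was not tested for any of these.

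The samples compare 3 wounded animals with 6, and 3 counts in a library are 0.132 to 0.198 CPM, below which a level was not detectable. The wound choices and the exclusion of both libraries were added after seeing the data, as was leaving out animals between wounds.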
